A study of Mus musculus with 6 samples.

Results

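10 genes of the junctions that couple heart muscle cells were followed in the ventricles of wild-type and Pkm1-knockout mouse embryos, out of 13809 genes counted. They were taken by their names, as the desmosomal, adherens junction and gap junction genes of cardiomyocytes, and all 10 had counts. Cdh2 and Ctnna3 belong to the adherens junction, Dsp, Pkp2, Jup, Dsg2 and Dsc2 to the desmosome, and Gja1, Gja5 and Gjc1 to the gap junction. RNA depleted of ribosomal RNA was sequenced from 3 wild-type (WT) and 3 pkm1-knockout (KO) hearts at embryonic day 18.5, described as ventricular tissue in the study's text and as heart in the sample labels. Pkm encodes pyruvate kinase of muscle, which makes pyruvate in the last step of glycolysis. The KO animals were homozygous for a small CRISPR/Cas9 deletion in the exon of Pkm that is used by Pkm1 alone. This deletion leaves a premature stop codon in the Pkm1 transcript, was made in zygotes of BDF1 hybrid mice, and is carried by every tissue of the embryo, not by heart muscle alone. Homozygous pups die soon after birth, so E18.5 is shortly before the time of death.

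Heart muscle cells meet end to end at the intercalated disc. Adherens junctions anchor the actin filaments of neighbouring cells to each other, desmosomes anchor the desmin filaments, and gap junction channels built from connexins let ions pass, so that the action potential spreads from cell to cell. Inherited loss of desmosomal proteins causes arrhythmogenic cardiomyopathy, and loss of the main ventricular connexin slows conduction. Before birth these proteins are still spread over the cell surface and gather at the cell ends only after birth.

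The libraries held between 15567624 and 19875546 counts, and 3 counts were worth 0.151 to 0.193 CPM, the counts scaled to the size of the library. The CPM of genes below also include edgeR's TMM factors, which balance the bulk of genes between libraries. The junction genes were deeply covered, from 700 counts in the library lowest for Gja5 to 35147 in that highest for Dsp. Counting error alone came to 0.533% to 3.78% of a value. Beside it, the variation between libraries that edgeR estimated for each gene before the test was 2.52% to 3.73%. Pkm, the targeted gene, had a mean of 1318 ± 41.1 CPM over the WT libraries and of 542 ± 10.1 CPM over the KO libraries (± SD, n = 3 each), in counts that do not separate Pkm1 from Pkm2. All 10 cardiomyocyte markers were present, summed to 50040 to 51766 CPM in WT and 48702 to 49281 CPM in KO, and no lung marker was in the table. Sex went with genotype in every library. Ddx3y, Kdm5d, Eif2s3y and Uty, all on the Y chromosome, were counted in every WT library and at 0 in every KO library, whereas the mean of Xist was 5.26 CPM over WT and 2285 CPM over KO libraries. Sex and genotype cannot be told apart in any comparison here, and in whole tissue neither can fewer cells of a type and less RNA per cell.

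The KO and WT libraries differed in 4 of the 10 genes, beside 30.3% of all genes tested. Dsp, Cdh2 and Pkp2 fell by 11.99%, 11.6% and 11.6%, and Gja1 rose by 11.6%. Jup, Dsg2, Dsc2, Ctnna3, Gja5 and Gjc1 did not pass the test. Dsp and Pkp2 are desmosomal and Cdh2 belongs to the adherens junction, whereas Gja1, the gene that rose, encodes the most abundant of the 3 connexins. Within each junction other genes did not pass: 3 of 5 desmosomal genes, 1 of 2 adherens junction genes and 2 of 3 connexins. None of the 10 genes changed by 1.5-fold or more: 0 passed that threshold in edgeR's quasi-likelihood test. Under every alternative, DESeq2 and limma included, no log2 change among the 10 was larger than 0.210.

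Over all 13804 genes tested, 15.7% were called lower and 14.6% were called higher in KO, 30.3% in either direction. A call means an adjusted p under 0.05 from the quasi-likelihood test of edgeR, with the Benjamini-Hochberg method over all genes. The 4 called genes of 10 thus stood near that background, and the count by itself sets the junction genes apart from no other genes. Calls with at least a 1.5-fold change made up 3.2% of all genes on the lower side and 2.99% on the higher side. When the libraries were scaled to cardiomyocyte marker genes instead of all genes, the calls over all genes moved from 2168 lower and 2011 higher to 1437 lower and 2837 higher. Under that scaling the 4 junction genes still passed the test, with log2 fold changes of -0.133 for Dsp, -0.127 for Cdh2, -0.128 for Pkp2 and 0.210 for Gja1. It follows the summed counts of the markers, and their median log2 fold change was still -0.18 after it (-0.24 before). With all libraries kept, that was larger in size than the falls of Dsp, Cdh2 and Pkp2.

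**Figure D1:**
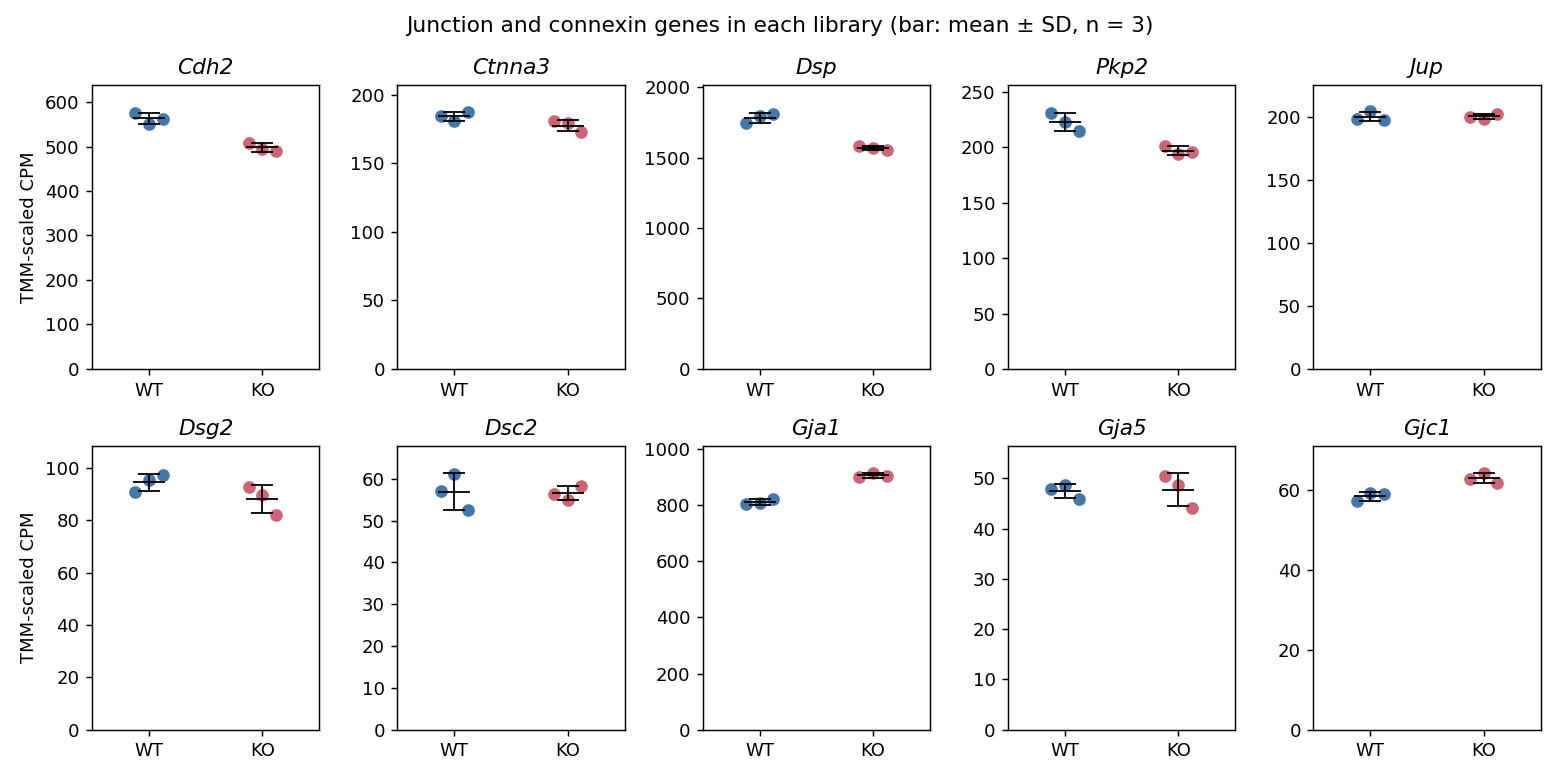
Level of each of the 10 junction and connexin genes in the 3 WT and 3 KO libraries, as TMM-scaled CPM on axes that start at 0, with points for libraries and bars for the mean and SD. The KO points of Cdh2, Dsp, Pkp2 and Ctnna3 all lie below the WT points, those of Gja1 and Gjc1 all lie above them, and those of the other 4 genes overlap.

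Cdh2 encodes N-cadherin, the adhesion receptor that joins one heart muscle cell to the next, and lies on chromosome 18, as do Dsg2 and Dsc2. Its level was 576, 551 and 563 CPM in WT a, b and c and 509, 494 and 491 CPM in KO a, b and c. Every KO library was below every WT library. The group means, with their SD over 3 libraries, were 563 ± 12.4 and 498 ± 9.68 CPM, and the fitted log2 change was -0.18 (SE 0.0279, edgeR adjusted p = 1.90e-05). The 95% interval of the change ran from -0.24 to -0.12 on the log2 scale.

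Ctnna3 encodes alpha-T-catenin, the heart- and testis-enriched alpha-catenin that links cadherin complexes to actin and binds plakophilin-2, and lies at chr10:63430098-65003667, plus strand, in the GRCm38 build used throughout. The WT libraries held 185, 181 and 188 CPM and the KO libraries 181, 179.6 and 173 CPM. The KO libraries lay below the WT libraries by a narrow margin. The fitted log2 change of -0.05 (SE 0.0346, edgeR adjusted p = 0.265) did not pass the test, with an interval from -0.12 to 0.02. Its ubiquitous relative Ctnna1, or alpha-E-catenin, fell from 738 ± 20.8 to 646 ± 3.35 CPM (SD, n = 3 each). Per 100 counts of Ctnna1 there were 24.99 ± 0.439 counts of Ctnna3 in WT and 27.5 ± 0.611 in KO (SD, n = 3 each), and the 2 genotypes did not overlap in this ratio. As Ctnna1 fell and Ctnna3 did not pass the test, the ratio is no separate result.

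Dsp encodes desmoplakin, the large protein that ties the desmosomal plaque to desmin. It was the most abundant desmosomal gene and showed the largest change among the called genes in the main fit. Cdh2 and Pkp2 changed by nearly as much, and without WT c Pkp2 fell more (-0.204 against -0.174 for Dsp, log2 scale). The gene lies at chr13:38151294-38198577 on the plus strand. The 250 bases before its RefSeq start (chr13:38151044-38151293, plus strand, GRCm38.p6) are shown because they hold the motif GGGCGG, the core of a GC box bound by Sp factors, more often than most promoters do. Capitals mark each match on either strand.
Dsp: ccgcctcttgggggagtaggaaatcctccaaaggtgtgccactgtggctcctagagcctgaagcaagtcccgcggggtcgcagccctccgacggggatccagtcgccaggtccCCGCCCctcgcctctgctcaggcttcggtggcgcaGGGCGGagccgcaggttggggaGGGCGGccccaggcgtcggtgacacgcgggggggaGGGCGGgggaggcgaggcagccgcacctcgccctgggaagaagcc
The motif occurred 4 times, at -137, -102, -80 and -45 counted to the first base of the match from the start site, and the stretch was 72.4% G and C. At least 4 matches were found in 4.09% of the 32851 mouse promoters of this length, whose median was 52.4% G and C. Neither CCAAT nor TGANTCA was found in it.

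The Dsp level was 1743, 1794 and 1813 CPM in WT a to c and 1586, 1569.5 and 1553 CPM in KO a to c. All 3 KO libraries were below all 3 WT libraries, and the gap between the groups was wider than the spread within either. The group means, with their SD over 3 libraries, were 1783 ± 36.4 and 1569 ± 16.2 CPM, and the fitted log2 change was -0.18 (SE 0.0226, edgeR adjusted p = 4.92e-07). The interval ran from -0.23 to -0.14. The predicted gene Gm10129 covers 5.17% of the Dsp exons on the opposite strand, and reads there could have been counted for either gene.

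Pkp2 encodes plakophilin-2, the armadillo protein of the desmosomal plaque that is most often mutated in arrhythmogenic cardiomyopathy, and lies at chr16:16213318-16272712 on the plus strand. It was at 231, 223 and 215 CPM in WT and at 202, 194 and 196 CPM in KO. The groups did not overlap, although WT c came nearer to KO a than to WT a. The group means, with their SD over 3 libraries, were 223 ± 8.24 and 197 ± 4.16 CPM, and the fitted log2 change was -0.18 (SE 0.0348, edgeR adjusted p = 2.95e-04). Its interval was -0.25 to -0.11.

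Jup encodes plakoglobin, also called gamma-catenin, which sits in both desmosomes and adherens junctions, and lies at chr11:100368958-100397763 on the minus strand. Its upstream 250 bases (chr11:100397791-100398040, minus strand, GRCm38.p6, RefSeq) are shown beside those of Dsp because plakoglobin binds desmoplakin in the same plaque and its RNA did not pass the test. Capitals mark CCAAT and GGGCGG.
Jup: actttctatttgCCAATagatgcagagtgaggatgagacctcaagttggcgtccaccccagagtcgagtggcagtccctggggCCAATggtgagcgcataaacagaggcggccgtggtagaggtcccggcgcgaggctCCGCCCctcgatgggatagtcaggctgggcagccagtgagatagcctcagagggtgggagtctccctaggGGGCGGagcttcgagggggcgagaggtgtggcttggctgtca
The stretch held CCAAT, the motif bound by NF-Y, at -238 and -167, and GGGCGG at -112 and -42. At least 2 matches of CCAAT were found in 10.09% of promoters, 33.8% held it at least once, and GGGCGG was found in 32.7%. No match of one motif overlapped another.

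Jup was at 199, 205 and 198 CPM in WT and at 200.4, 199 and 203 CPM in KO. The groups overlapped almost fully. The fitted log2 change was 0.0014 (SE 0.0330, edgeR adjusted p = 0.979), with an interval from -0.07 to 0.07. Jup was thus measured as precisely as Pkp2, and a change of the size seen in Pkp2 or Dsp lay outside its interval. Per 100 counts of Dsp there were 11.2 ± 0.284 counts of Jup in WT and 12.8 ± 0.235 in KO (SD, n = 3 each), with no overlap. As Dsp fell and Jup stayed level, this ratio is no separate result. Against Ctnnb1, which encodes beta-catenin, the relative of plakoglobin in the adherens junction, the genotypes overlapped, at 35.6 ± 0.656 and 34.6 ± 0.799 counts of Jup per 100.

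Dsg2 and Dsc2 encode desmoglein-2 and desmocollin-2, the cadherins that span the gap between the cells in the heart's desmosomes. Dsg2 was at 90.7, 95.4 and 97.2 CPM in WT and at 92.5, 89.6 and 82.1 CPM in KO. KO a lay inside the WT range, so the groups overlapped. The fitted log2 change of Dsg2 was -0.10 (SE 0.0467, edgeR adjusted p = 0.105). Its interval, which is not adjusted for the number of genes, ran from -0.20 to -0.0047. Dsc2 was at 57.1, 61.2 and 52.5 CPM in WT and at 56.5, 54.9 and 58.4 CPM in KO. The 3 KO values of Dsc2 all fell inside the WT range. Its fitted log2 change was -0.01 (SE 0.0551, edgeR adjusted p = 0.895), with an interval from -0.13 to 0.10, which leaves out a fall of the size seen in Dsp. Of the Dsg2 exons, 3.99% are covered by the opposite-strand gene Gm16090.

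Gja1 encodes connexin-43, the main gap junction protein of working ventricular muscle. It lies at chr10:56377330-56402513 on the plus strand. Its upstream 250 bases (chr10:56377050-56377299, plus strand, GRCm38.p6, RefSeq) and those of Gja5 (chr3:97032152-97032401, plus strand) are shown because the motif TGANTCA (N is any base), which AP-1 dimers of Jun and Fos proteins bind, was found in the first and not in the second. Capitals mark TGANTCA in Gja1 and GGGCGG in Gja5.
Gja1: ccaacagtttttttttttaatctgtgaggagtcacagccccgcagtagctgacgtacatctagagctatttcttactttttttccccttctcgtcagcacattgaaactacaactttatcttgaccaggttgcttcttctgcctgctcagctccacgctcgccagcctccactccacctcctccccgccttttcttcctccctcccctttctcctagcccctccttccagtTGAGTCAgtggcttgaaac
Gja5: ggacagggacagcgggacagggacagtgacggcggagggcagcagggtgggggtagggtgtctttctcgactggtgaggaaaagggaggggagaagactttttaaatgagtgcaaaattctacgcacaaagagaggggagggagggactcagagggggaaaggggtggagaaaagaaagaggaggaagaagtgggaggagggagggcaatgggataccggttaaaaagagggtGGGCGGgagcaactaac
TGANTCA stood at -19 in Gja1 and was found in 6.7% of all promoters. Neither CCAAT nor GGGCGG was found in the Gja1 stretch, and GGGCGG stood at -17 in Gja5. The Gja5 stretch was 56.4% G and C and lies inside the annotated span of the gene, which has another start further upstream. A match of letters shows no binding, and no match says nothing of a factor.

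Gja1 was at 805, 808 and 823 CPM in WT a to c and at 899, 915 and 905 CPM in KO a to c. Every KO library was above every WT library. The group means, with their SD over 3 libraries, were 812 ± 9.37 and 907 ± 7.71 CPM, and the fitted log2 change was 0.16 (SE 0.0244, edgeR adjusted p = 1.46e-05). The interval ran from 0.11 to 0.21. Gap junctions are known to assemble in the adherens junctions that Cdh2 forms. Per 100 counts of Cdh2 there were 144 ± 3.87 counts of Gja1 in WT and 182 ± 4.66 in KO (SD, n = 3 each). This ratio was 26.3% higher in KO. As the genotypes already stood apart in both genes, the ratio could not overlap and is no separate result.

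Gja5 encodes connexin-40, the connexin of the atria and of the ventricular conduction system, and lies at chr3:96904693-97077416 on the plus strand. It was at 47.9, 48.7 and 46.0 CPM in WT and at 50.5, 48.6 and 44.1 CPM in KO. The KO libraries lay on both sides of the WT libraries. The fitted log2 change was 0.0040 (SE 0.0570, edgeR adjusted p = 0.966), with an interval from -0.11 to 0.12. Of the 50-base words of its transcripts, 13.2% also occur in Zfp697, and 2.87% of its exons lie opposite Gpr89, so its level is less certain than those of the other connexins.

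Gjc1 encodes connexin-45, the connexin of the early heart tube and later of the nodes, and lies at chr11:102799579-102819700 on the minus strand. It was at 57.2, 59.2 and 59.1 CPM in WT and at 62.8, 64.3 and 61.8 CPM in KO. All KO libraries were above all WT libraries. The group means were 58.5 and 63.0 CPM, with an SD of at most 1.27 over 3 libraries. The interval of its log2 change, not adjusted for the number of genes, ran from 0.0081 to 0.20. The fitted log2 change of 0.11 (SE 0.0478, edgeR adjusted p = 0.0940) did not pass the threshold. With the libraries scaled to cardiomyocyte markers it did, at 0.157 with an adjusted p of 0.0182 in edgeR's test.

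**Figure D2:**
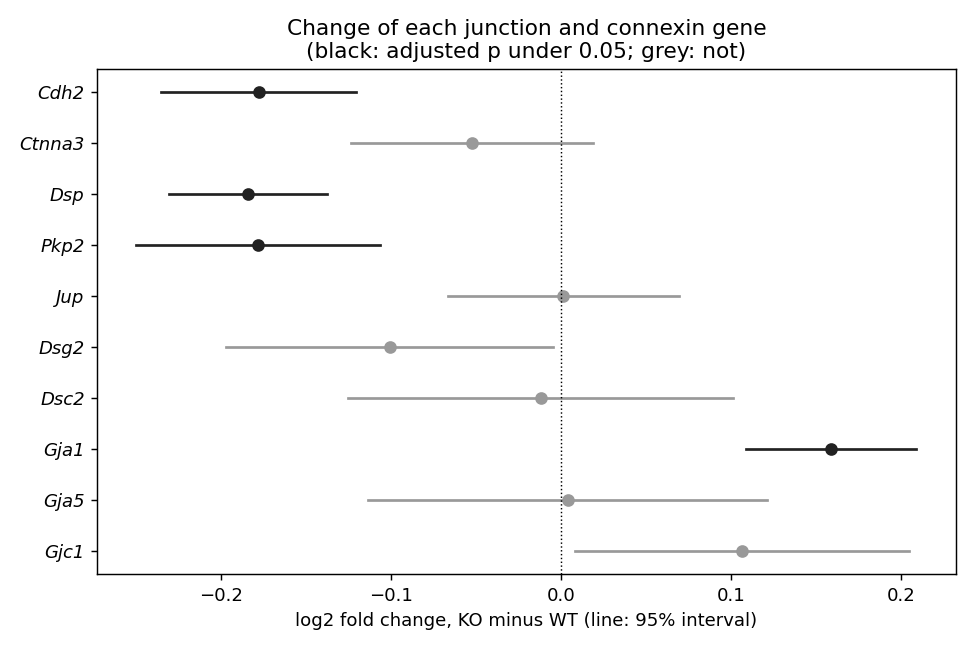
Log2 fold change of each junction and connexin gene, KO minus WT, with its 95% interval, black where the adjusted p was under 0.05. Cdh2, Dsp and Pkp2 sit at -0.18 and Gja1 at 0.16, and the intervals of Ctnna3, Jup, Dsc2 and Gja5 cross 0. Those of Dsg2 and Gjc1 do not cross 0, but neither gene passed the test after adjustment.

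The KO libraries lay below the WT libraries without overlap for 4 of the 10 genes, Cdh2, Ctnna3, Dsp and Pkp2, and above them for 2, Gja1 and Gjc1. Over all tested genes 21.4% lay below and 21% above without overlap. The median log2 fold change of the 10 genes was -0.03, beside 0.0017 over all genes. By junction type, the summed level of the 2 adherens junction genes went from 732 to 761 CPM in WT to 663 to 690 CPM in KO. The 5 desmosomal genes together went from 2321 to 2378 CPM to 2093 to 2137 CPM, and the 3 connexins from 910 to 928 CPM to 1011 to 1028 CPM. The WT and KO ranges of all 3 sums stood apart. Each sum is carried by its most abundant gene, Cdh2, Dsp or Gja1. The 6 genes that did not pass the test had intervals that together reached from 12.8% lower to 15.2% higher, so changes of that order were not detectable in every one of them.

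Levels of different genes can be compared only per length, and here the length used changed the order. Divided by the kilobases of all annotated exons, the WT means were 184.6 CPM per kilobase for Dsp, 79.2 for Gja1, 69.8 for Cdh2, 41.6 for Pkp2, 31.1 for Jup and 25.5 for Ctnna3. These 6 neighbours stood apart from each other by more than the spread over libraries. Gjc1, Dsg2 and Dsc2 followed at 11.7, 11.4 and 10.8 CPM per kilobase and did not differ beyond their spread, and Gja5 was lowest at 8.27. Divided by the longest transcript alone, Gja1 came first at 209 CPM per kilobase, above Dsp at 186, since the annotated exons of Gja1 cover 10257 bases together and its longest transcript 3889.

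**Figure D3:**
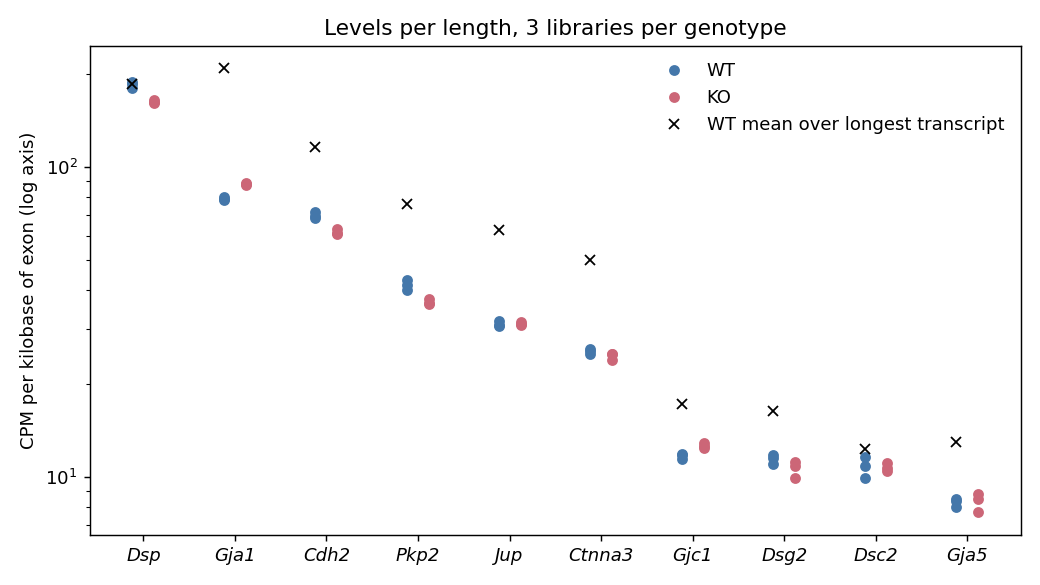
Level of each gene in CPM per kilobase of annotated exon on a log axis, with 3 WT and 3 KO libraries as points and a cross for the WT mean over the longest transcript. Dsp leads at 184.6 by exon length, and the cross of Gja1 lies above that of Dsp.

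The balance within each junction was followed as the share of each gene in the per-length counts of its junction, which does not depend on library size. The size of a share does depend on the length used, here that of all annotated exons. In the desmosome, Jup took 11.2%, 11.3% and 10.97% in WT and 12.2%, 12.3% and 12.6% in KO. Dsp took 66.0% ± 0.859 in WT and 64.5% ± 0.237 in KO (SD, n = 3 each). The KO libraries were thus all above the WT libraries for Jup and all below them for Dsp. Dsc2 went from 3.86% ± 0.286 to 4.26% ± 0.148, also without overlap, whereas the shares of Pkp2 (14.9% and 14.6%) and Dsg2 (4.09% and 4.23%) overlapped. Shares are bound to each other, so a fall of Dsp raises those of genes that stay level. The levels of Jup and Dsc2 themselves did not pass the test. Among the connexins, Gja1 took 79.9% ± 0.342 in WT and 80.9% ± 0.560 in KO (SD, n = 3 each). Gjc1 took 11.8% ± 0.147 and 11.5% ± 0.114, below in every KO library, as its own log2 change was smaller than that of Gja1. Gja5 took 8.35% ± 0.301 and 7.60% ± 0.488, with overlap. With 3 libraries against 3, the exact two-sided permutation test cannot go below p = 0.1, which it reached for Gja1, Gjc1, Dsp, Jup and Dsc2 (0.16 after Benjamini-Hochberg adjustment over the 8 shares), so no share could pass a threshold of 0.05.

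**Figure D4:**
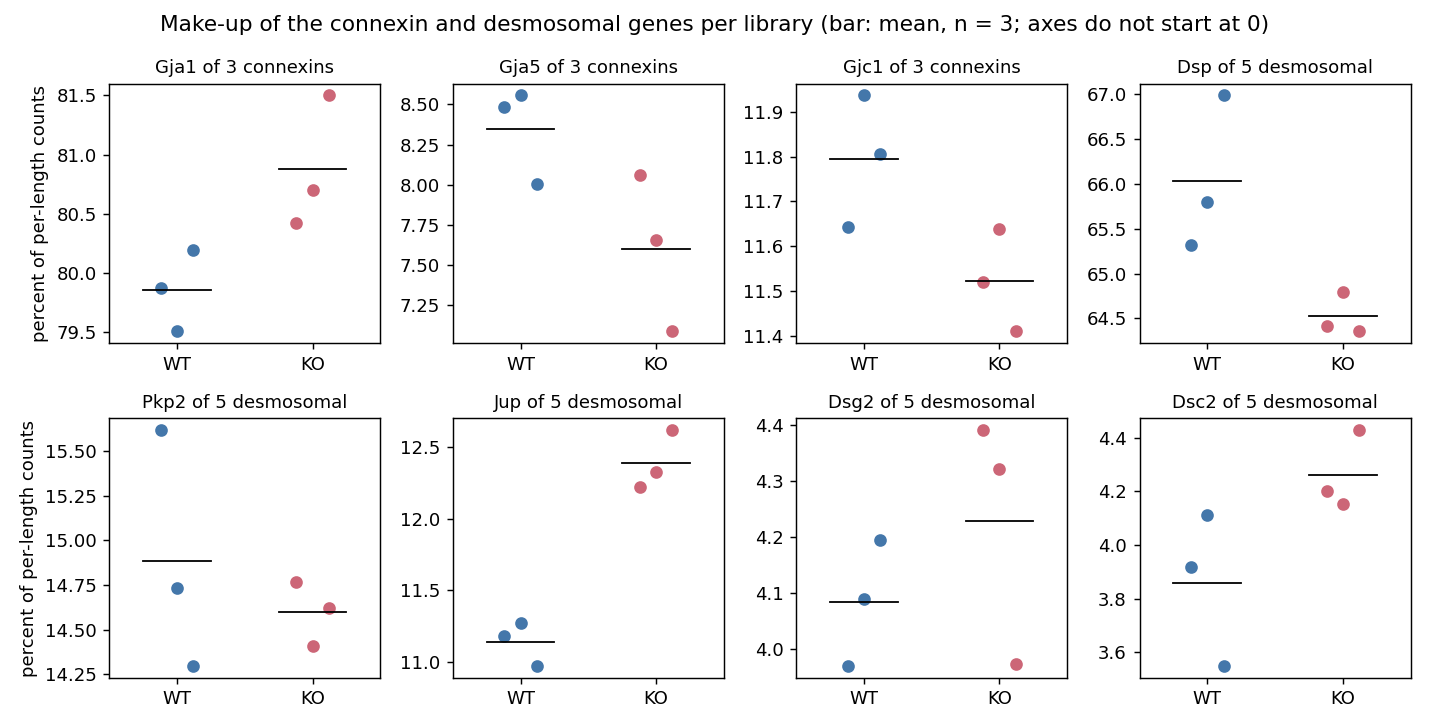
Share of each gene in the per-length counts of the 3 connexins or of the 5 desmosomal genes, in percent, with points for the 3 WT and 3 KO libraries and a bar for their mean, on axes that do not start at 0. The mean share of Jup is 11.1% in WT and 12.4% in KO without overlap, and the shares of Gja5, Pkp2 and Dsg2 overlap between genotypes.

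Beside the 10 genes, 57 other junction genes and regulators of cardiac connexins were tested, of which 23 were lower, 5 were higher and 29 did not pass the test. Scaled to the cardiomyocyte markers, 19 were lower and 11 higher, and without KO c 3 were higher. Of 25 other genes of the adherens junction and the disc scaffold, 13 were lower and 2 higher, with a median log2 fold change of -0.10. Nrap, a scaffold that docks myofibrils to the cadherin complex, went from 754 ± 20.7 to 554 ± 5.43 CPM (SD, n = 3 each; log2 fold change -0.44), the largest fall on that list. Actn2, which cross-links actin at the Z-disc, Xirp1, an actin-binding protein of the disc, and Ctnna1 fell by 0.25, 0.27 and 0.19 on the log2 scale. Ldb3, a Z-disc protein, and Arvcf, a catenin of the p120 family, were the 2 that rose, with log2 fold changes of 0.17 and 0.16. Ctnnb1 did not pass the test (log2 fold change 0.04, adjusted p = 0.266, edgeR), as Jup, its relative, did not. Des, the desmin of the filaments that desmoplakin holds, went from 843 ± 45.0 to 720.5 ± 7.09 CPM (SD, n = 3 each; log2 fold change -0.23). Of 8 other desmosomal and filament genes in the table, 4 were lower: the lamin gene Lmna (log2 fold change -0.31), Des, the plectin gene Plec (-0.17) and Perp (-0.12), a membrane protein of desmosomes. Evpl, which encodes envoplakin, was higher but low in level, at 2.30 and 3.63 CPM. The desmosomal genes of the skin, Dsg1a, Dsg3, Dsg4, Dsc1, Dsc3, Pkp1 and Pkp3, were not in the table.

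Of 11 other connexin, pannexin and gap junction partner genes in the table, Gja4 and Kcnj2 were higher. Gja4, the connexin-37 of arterial endothelium, was at 6.89, 6.99 and 7.03 CPM in WT and at 10.9, 11.1 and 10.7 CPM in KO. It thus rose in every KO library, with a log2 fold change of 0.64 (adjusted p = 3.96e-05, edgeR), while its usual endothelial partner Gja5 did not pass the test. The endothelial markers as a whole were at 1243 to 1248 CPM in WT and 1200 to 1222 CPM in KO. Of the 10, Pecam1, Cdh5, Tie1 and Sox17 were lower and Egfl7 and Cldn5 higher. The part of endothelial cells in the rise of Gja4 was not tested. Kcnj2 encodes the inward rectifier channel Kir2.1, which helps to set the resting potential of heart muscle cells. It went from 50.2 ± 1.36 to 78.9 ± 2.63 CPM (SD, n = 3 each), with a log2 fold change of 0.65. Popdc2, a membrane protein that binds cyclic AMP, fell by 0.13 on the log2 scale.

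Among 13 transcription factors known to act on cardiac connexin genes, 4 were lower and 9 did not pass the test. Fos was at 49.2, 49.1 and 50.5 CPM in WT and at 2.12, 4.04 and 3.11 CPM in KO. Jun was at 165, 167 and 184 CPM in WT and at 74.2, 79.5 and 76.0 CPM in KO. Fos and Jun, the immediate early partners of AP-1, were far below their WT levels in all KO libraries, in the same libraries in which Gja1 was higher. Tbx3, a repressor of working-muscle connexins, fell by 0.58, and Irx3, which acts in the fast conduction system, by 0.25 on the log2 scale. Tbx5, Nkx2-5 and Gata4, activators of connexin genes, did not pass the test. The part of these genes in the junction results was not tested.

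Several cell markers moved with genotype. The 7 atrial markers in the table summed to 614 to 623 CPM in WT and 1027 to 1049 CPM in KO, where Myl4, Myl7 and Nppa rose and the other 4, Nr2f1, Nr2f2, Stard10 and Bmp10, did not pass the test. Gja5, itself enriched in atria, did not pass the test. Of the 10 cardiomyocyte markers, 7 were lower and 3, Actc1, Mybpc3 and Myh7, were higher. The median log2 fold change of the 10 was -0.24, below that of each of the 3 junction genes that fell. This order rested on WT c. Without WT c the marker median was -0.166, beside -0.180 for Cdh2, -0.174 for Dsp and -0.204 for Pkp2. The fibroblast markers summed to 3946 to 3992 CPM in WT and 3677 to 3746 CPM in KO, with 4 of 8, Col3a1, Dcn, Lum and Postn, lower. Of the 7 epicardial and epithelial markers 3, Wt1, Upk3b and Krt19, were higher, and their sum went from 77.9 to 81.0 CPM to 94.3 to 99.5 CPM. The part of these shifts in the junction results was not tested.

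**Figure D5:**
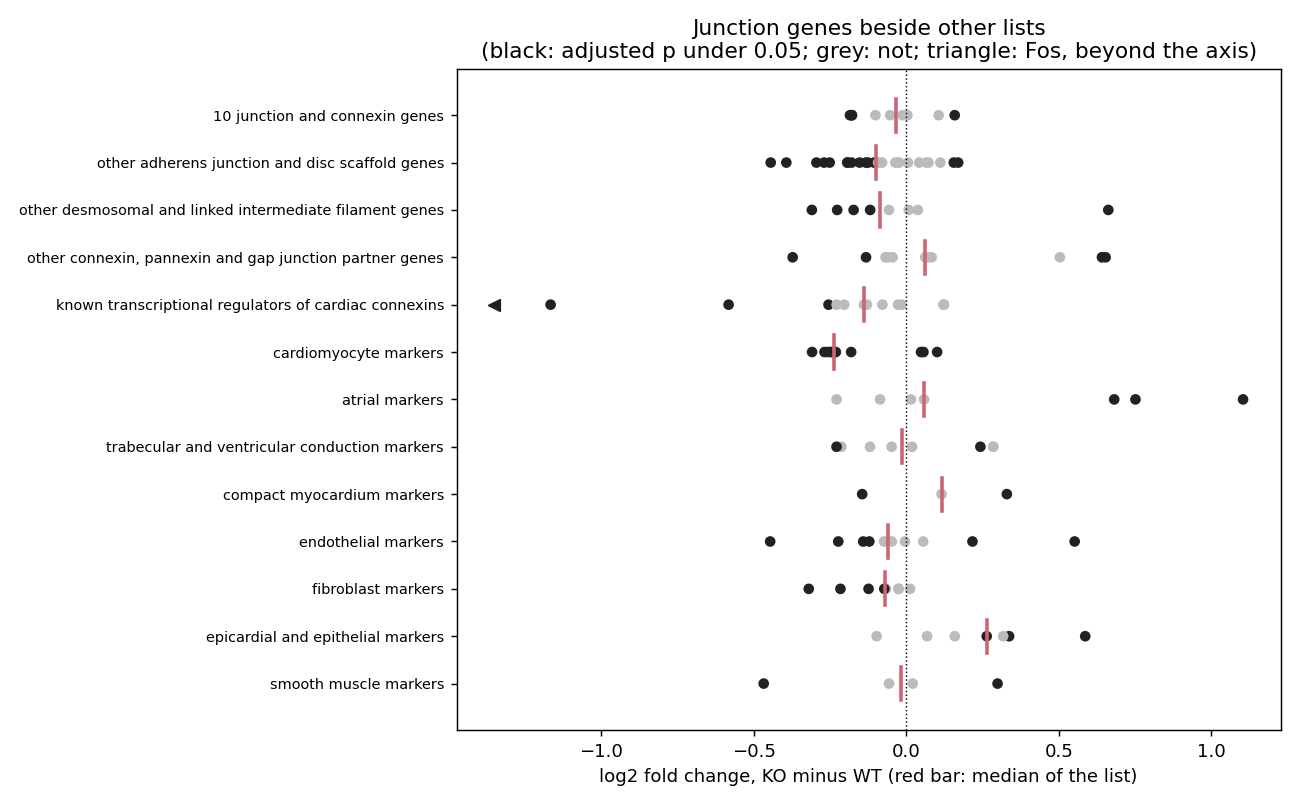
Log2 fold change, KO minus WT, of the 10 junction and connexin genes, of other junction genes and regulators, and of cell markers, with a red bar at the median of each list and black points for an adjusted p under 0.05. The medians lie at -0.03 for the 10 genes, -0.10 for the other adherens junction and disc scaffold genes and -0.24 for the cardiomyocyte markers.

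Dsp had the largest change of the called genes in the main fit, by a narrow margin. The genes whose profile over the 6 libraries was nearest to that of Dsp, by Euclidean distance of centred log2 CPM, were Rrm2 (0.027), Lats2 (0.031) and Slc25a4 (0.033), a subunit of ribonucleotide reductase, a kinase of the Hippo pathway and the mitochondrial ADP/ATP carrier. Likeness over 6 libraries that differ mainly by genotype says nothing of shared control.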

How the data were processed

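Counts per gene symbol from 6 libraries, 3 WT and 3 KO, were used as deposited. Per the labels and methods, the authors sequenced paired 150-base reads and used cutadapt 1.18, HISAT2, StringTie and mm10. The counting program and its strand setting are not given in the sources used here. The table's columns of the authors' own comparison (log2 fold changes, average levels and p-values) were not used. The column names give the genotype but no replicate number, so libraries were named a to c in column order. The study calls them biological replicates.

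edgeR 4.0.16 in R 4.3.3 was run with filterByExpr (13804 of 13809 genes kept), TMM scaling, the quasi-likelihood test and Benjamini-Hochberg adjustment over all genes. Every pair of libraries of the same genotype differed beyond sampling noise. WT c stood furthest off, with a chi-square per degree of freedom of 3.76 against WT a and 3.24 against WT b. The other pairs were at 1.56 to 1.88. The test was checked on simulated data with 200 genes changed. Gene annotation was GENCODE on GRCm38. Of the 10 members, 5 matched a RefSeq promoter. Members, lists and named genes (all members, the 5 called genes of smallest adjusted p per list, and any gene in a count of 5 or fewer, marker genes beside a result) were chosen with earlier results of these data known. Alternatives were RLE scaling, DESeq2 1.42.0, edgeR's likelihood ratio test, limma 3.58.1 voom, other count filters, Rn45s or X and Y genes left out, scaling to cardiomyocyte markers, other lengths, and each library left out. Intervals of log2 changes are at 95% and include the spread between libraries, whereas the floor of 3 counts covers counting error only. The values of 1 gene of the lists are not reported here. Figures were drawn with matplotlib 3.10.9.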

Additional observations from a re-analysis of the deposited data

How the results depend on the processing

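The calls for Cdh2, Dsp, Pkp2 and Gja1 held under all 15 alternatives, with log2 fold changes of -0.195 to -0.127, -0.202 to -0.133, -0.204 to -0.128 and 0.151 to 0.210. Scaling to cardiomyocyte markers, which moved the median of all genes to 0.05 on the log2 scale, raised the higher genes to 2 among the 10 (Gjc1 added) and to 11 among the other junction genes and regulators, and lowered the genes called lower over the whole table to 1437. When single libraries were left out, the higher genes among the other junction genes ranged from 3 to 6, lowest without KO c. 3 genes near 0 changed sign. Jup went to -0.00624 without WT a, -0.00899 without WT c and -0.00640 without KO c, and no higher than 0.0150 with any library left out. Dsc2 went to 0.0381 under cardiomyocyte scaling, 0.0439 without WT b and 0.00835 without KO b, with -0.0659 as the lowest without a library. Gja5 went to -0.0196 without WT c, -0.0401 without KO a and -0.00848 without KO b, with 0.0595 as the highest without a library. None of these passed the test. The Jup share of the desmosome was higher by 1.24 points by exon length, 1.80 by the longest transcript and 1.00 with no length. That of Pkp2 ranged from -0.57 to 0.0859 points with a library left out, positive without WT a. The cause was not tested. No paired analysis was possible because no column name holds a replicate number. Counting error limits Gja5, Gjc1 and Dsc2 most.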
